A study of Mus musculus with 8 samples.

Results

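The Hox genes of the 4 mammalian Hox clusters were examined in Lewis lung carcinoma (LLC) cells with and without FIH. They were taken from the count table as the protein-coding genes named Hoxa, Hoxb, Hoxc or Hoxd followed by a number. This gave 39 genes of the 53700 genes in the table, 11 in the Hoxa cluster, 10 in Hoxb, 9 in Hoxc and 9 in Hoxd. Of these, 22 had a mean of at least 10 raw counts over the 8 libraries and are called expressed in the text that follows.

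Hox genes encode homeodomain transcription factors that give cells their position along the head-to-tail axis of the embryo and along the limb. Within a cluster the genes lie in the order in which they are used, a property named collinearity: the genes of low number at the 3′ end act early and toward the head, and those of high number at the 5′ end act late and toward the tail and the limb tip. Genes that hold the same place in different clusters form a paralog group and often share functions. Hox proteins bind DNA together with partners of the TALE class, such as Pbx and Meis. Caudal (Cdx) factors and retinoic acid switch parts of the clusters on in the embryo, and Polycomb and Trithorax complexes then hold each gene in its silent or active state, so that adult cells and cell lines tend to keep a code of active Hox genes that reflects where they came from.

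LLC is a mouse lung carcinoma line. FIH, encoded by Hif1an, is an oxygen-dependent asparagine hydroxylase that restrains the hypoxia-inducible factors, and the FIH-KO cells were made from LLC with a Cas9 ribonucleoprotein guided to exon 2 of Hif1an followed by single-cell dilution, so that they descend from selected clones, the number of which behind these libraries is not given in the sources used here. WT and FIH-KO cells were cultured at 21% O2 (normoxia) or 1% O2 (hypoxia) for 16 hours, and 2 mRNA libraries were sequenced for each of the 4 groups, WT normoxia, FIH-KO normoxia, WT hypoxia and FIH-KO hypoxia. The labels do not say whether the 2 libraries of a group came from separate cultures. The p values therefore measure only the spread between these libraries, which may be technical. FIH loss and any other difference between the selected clones and the WT cells cannot be told apart in this design.

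Each library held between 14519731 and 18177016 counts, of which the Hox genes took between 0.0116% and 0.0206%. Hif1an was lower in FIH-KO cells in both conditions, with 584 to 784 counts in the FIH-KO libraries and 1231 to 1609 in the WT libraries. Of 7 epithelial markers 3 were expressed, while Epcam and Cldn4 had no read, and the list summed to 945 to 1042 TPM in WT and 1238 to 1496 in FIH-KO libraries in normoxia, and to 692 to 813 and 930.5 to 1207 in hypoxia. Of 8 markers of the lung epithelial lineage 2 were expressed, Hopx with 113 to 179 counts and the alveolar marker Ager with 13 to 37, while 3, among them the lineage factor Nkx2-1 and the surfactant gene Sftpc, had no read in any library. Of 6 mesenchymal markers 5 were expressed, and the list summed to 3706 to 4402 TPM in WT libraries and 6220 to 7023 in FIH-KO libraries. A few abundant genes carried most of these sums. In normoxia mean TPM was 367.5 in WT and 753.4 in FIH-KO cells for Krt8, 623.6 and 610.3 for Krt18, and 3704 and 5370 for Vim. In the edgeR test used below, 1 of 3 tested epithelial and 2 of 5 tested mesenchymal markers were higher in FIH-KO normoxia and 0 lower, beside 28.2% of all tested genes called. The part of these marker differences in the Hox results was not tested. Of 5 leukocyte markers 1 was expressed, with a sum of 9.18 to 24.6 TPM, and of 4 endothelial markers none was, with a sum of 0.133 to 0.440 TPM in the other groups and 1.69 to 2.37 in WT hypoxia.

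In LLC cells the highest Hox levels lay in the middle to 5′ part of the Hoxa and Hoxd clusters. The Hoxb cluster was active at lower levels, and the Hoxc cluster held hardly any reads. Levels are compared between genes in TPM, which corrects for the joint length of all annotated exons of a gene. This length can exceed that of the transcript in use, which would lower the TPM of such a gene. In WT normoxia the highest mean TPM (SD, n = 2) were 49.8 ± 2.47 for Hoxa7, 47.4 ± 1.63 for Hoxd8, 37.1 ± 1.44 for Hoxd9 and 32.6 ± 1.27 for Hoxd10. Hoxa7 and Hoxd8 differed by no more than the SD of Hoxa7, while Hoxd8 stood above Hoxd9 and Hoxd9 above Hoxd10 by more than their SDs. In FIH-KO normoxia the order changed, with 85.7 ± 8.84 TPM for Hoxd10, 82.2 ± 10.1 for Hoxd9, 71.3 ± 1.06 for Hoxd8 and 41.9 ± 5.43 for Hoxa7 (SD, n = 2 each), and the first 2 of these were within their spread of each other.

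**Figure D1:**
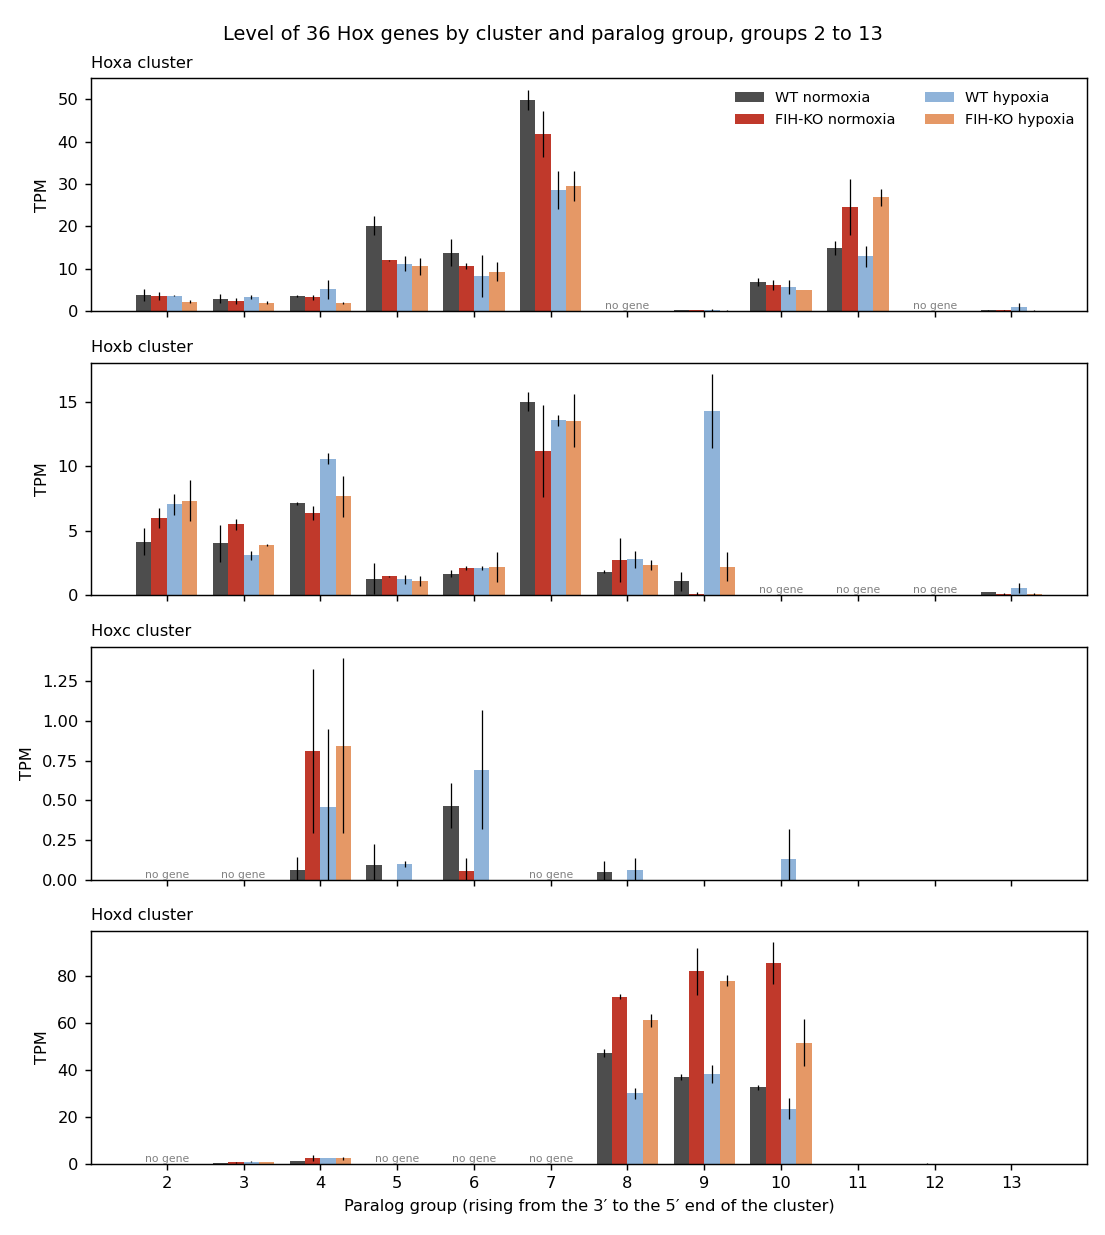
Mean TPM of 36 Hox genes, those of paralog groups 2 to 13, with 1 panel for each cluster, the paralog group on the horizontal axis and 1 bar for each of the 4 groups; error bars are SD over 2 libraries and each panel has its own vertical scale. Hoxd8, Hoxd9 and Hoxd10 stand above the rest of their cluster and are higher in FIH-KO than in WT cells, Hoxb9 stands out in WT hypoxia, and the whole Hoxc panel lies under 2 TPM.

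The Hoxa cluster (minus strand of chromosome 6 in GRCm39) had 9 of 11 members expressed. Toward the 3′ side, where the genes pattern the hindbrain and branchial arches, levels were low in WT normoxia: 3.81 ± 1.35 TPM for Hoxa2, 2.93 ± 1.12 for Hoxa3 and 3.52 ± 0.179 for Hoxa4 (SD, n = 2 each). Hoxa5, a gene needed for the development of the lung and upper airway, was at 20.1 ± 2.20 TPM, Hoxa6 at 13.8 ± 3.12 and Hoxa7 at the level given above. On the 5′ side, Hoxa10, which patterns the lumbar spine and the uterus, was at 6.81 ± 0.977 TPM, and Hoxa11, which patterns the middle limb segment and the uterus, was at 14.9 ± 1.59 (SD, n = 2 each). Between them and Hoxa7, Hoxa9 had 0 to 7 reads in each library, and Hoxa13 at the 5′ end had 0 to 12. The run of expressed genes in this cluster was thus broken at Hoxa9. Its mean over the libraries was 0.170 TPM, against 37.4 for Hoxa7 and 5.88 for Hoxa10.

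The Hoxb cluster (plus strand, chr11:96085106-96259082) had 8 of 10 members expressed, in an unbroken run from Hoxb2 to Hoxb9. In WT normoxia Hoxb7 was highest at 15.0 ± 0.726 TPM, followed by Hoxb4, known for expanding blood stem cells when in excess, at 7.12 ± 0.126. Hoxb2, a hindbrain gene, was at 4.16 ± 1.04 TPM and Hoxb3 at 4.01 ± 1.46, within their spread of each other. Hoxb8 was at 1.83 ± 0.143 TPM, Hoxb6 at 1.66 ± 0.264, Hoxb5 at 1.29 ± 1.21 and Hoxb9 at 1.07 ± 0.716 (SD, n = 2 each), and the last 3 did not differ beyond their spread. Hoxb1, the 3′ gene of the cluster, had no read in any library, and Hoxb13, the 5′ gene, had between 0 and 7.

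The Hoxd cluster (plus strand, chr2:74498654-74595486) had 5 of 9 members expressed and carried the highest summed level of any cluster in FIH-KO cells. In WT hypoxia its sum was also the highest, though close to that of Hoxa, at 92.98 and 97.74 TPM against 83.82 and 90.05. Besides Hoxd8, Hoxd9 and Hoxd10, which pattern the trunk, the lumbar spinal cord and the limb, only Hoxd3 and Hoxd4 were expressed, at 0.298 ± 0.168 and 1.24 ± 0.148 TPM in WT normoxia (SD, n = 2 each). Hoxd1, Hoxd11 and Hoxd13 had no read in any library, and Hoxd12 had 1 read in a single library. No member on the 5′ side of Hoxd10 was thus expressed. The Hoxd11 span overlaps Gm28309 on the same strand, and reads shared between overlapping genes may not have been counted. The spans of Hoxd3 and Hoxd4 overlap on the same strand and both overlap the annotated gene Gm28230, so the division of reads between them is uncertain.

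The Hoxc cluster (plus strand, chr15:102829538-102945278) had 0 of 9 members expressed. Hoxc9, Hoxc11, Hoxc12 and Hoxc13 had no read, and the other 5 had at most 11 reads in a library. Hoxc4 held 1 and 0 reads in WT normoxia, 4 and 11 in FIH-KO normoxia, 1 and 6 in WT hypoxia and 4 and 10 in FIH-KO hypoxia. Hoxc6 held 3 and 5 reads in WT normoxia, 1 and 0 in FIH-KO normoxia, 4 and 7 in WT hypoxia and no read in FIH-KO hypoxia. These counts are too low to rank. A count of 0 in a library allows up to 3 counts, which is 0.168 to 0.205 CPM (counts scaled to library size), and this limit covers counting error only. Over all 4 clusters, 8 members had no read in any library and 9 had reads but a mean under 10.

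Summed over its members, the Hoxd cluster was at 115 and 122 TPM in the WT normoxia libraries, 254 and 231 in FIH-KO normoxia, 93.0 and 97.7 in WT hypoxia and 183 and 206 in FIH-KO hypoxia. All 4 FIH-KO libraries therefore stood above all 4 WT libraries. The Hoxa sum was 97.2 to 132 TPM in the 4 normoxia libraries and 83.8 to 93.2 in the 4 hypoxia libraries. The Hoxb sum was 51.7 and 58.7 TPM in WT hypoxia and 31.5 to 40.8 in the other 6 libraries, and the Hoxc sum was 0.455 to 1.99 TPM.

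**Figure D2:**
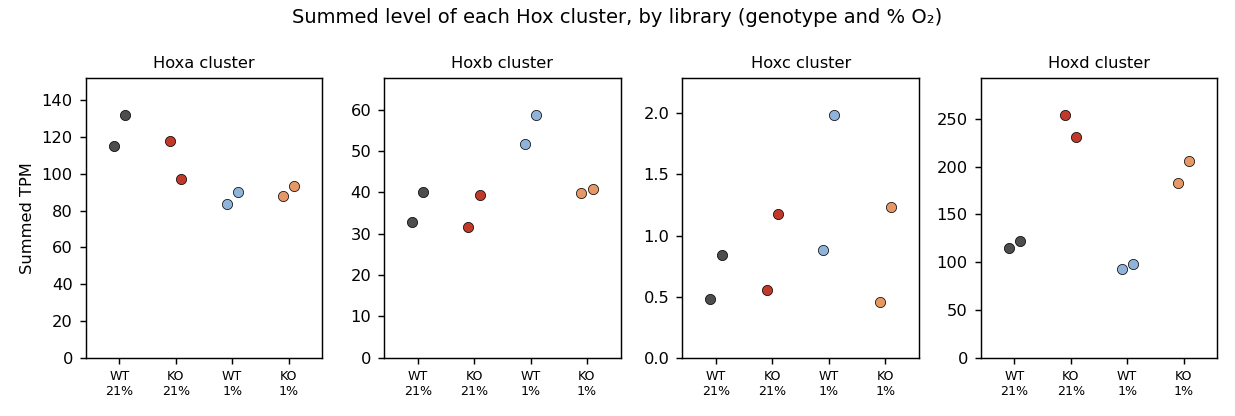
Summed TPM of each Hox cluster, with 1 point per library and 1 panel per cluster, each with its own vertical scale from 0. The Hoxd sum is 183 to 254 TPM in FIH-KO libraries and 93.0 to 122 in WT libraries, and the Hoxb sum is highest in the 2 WT hypoxia libraries.

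The sequences upstream of Hoxd8, Hoxd9 and Hoxd10 are shown because these 3 genes moved together with genotype. Each is the 250 bases before the annotated start of the main transcript, read from GRCm39 in the direction of transcription, on the plus strand. Capitals mark each ACGTG or GCGTG on either strand, the core letters of the element that hypoxia-inducible factors bind.
Hoxd10 (chr2:74521980-74522229): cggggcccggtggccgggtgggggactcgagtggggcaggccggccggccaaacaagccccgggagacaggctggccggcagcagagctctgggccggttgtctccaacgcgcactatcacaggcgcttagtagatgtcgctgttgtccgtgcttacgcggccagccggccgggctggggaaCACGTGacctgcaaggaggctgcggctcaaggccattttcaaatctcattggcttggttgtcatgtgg
Hoxd9 (chr2:74527758-74528007): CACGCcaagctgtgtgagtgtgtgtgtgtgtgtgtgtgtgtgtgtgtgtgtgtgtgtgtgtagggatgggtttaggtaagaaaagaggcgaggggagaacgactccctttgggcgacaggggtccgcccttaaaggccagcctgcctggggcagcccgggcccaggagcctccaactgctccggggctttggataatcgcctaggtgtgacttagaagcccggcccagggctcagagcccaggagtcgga
Hoxd8 (chr2:74534718-74534967): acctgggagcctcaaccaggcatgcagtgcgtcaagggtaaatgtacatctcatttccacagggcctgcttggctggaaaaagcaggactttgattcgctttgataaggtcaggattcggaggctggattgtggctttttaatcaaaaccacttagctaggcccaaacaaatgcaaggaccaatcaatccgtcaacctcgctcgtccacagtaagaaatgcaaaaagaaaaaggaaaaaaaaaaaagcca
The Hoxd10 window held the palindrome CACGTG, which reads as ACGTG on both strands, 68 and 67 bases before the transcript start, and which is also the letters of an E-box. The Hoxd9 window held a single core on the other strand at its far end, and the Hoxd8 window held none. The core occurred in 41.3% of all 21757 protein-coding promoter windows of this length, in 20 of the 39 Hox windows (51.3%), in 15 of 22 of expressed members and in 5 of 17 of the others. Both core forms contain the letters CG. The median ratio of observed to expected CG was 0.77 in windows of expressed members, 0.52 in the others and 0.47 in all protein-coding windows. The part of this base content in the shares with a core was not tested. A match of these letters describes the sequence and is not a measured binding site.

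FIH-KO and WT cells were compared in normoxia first. The 3 genes of the central to 5′ Hoxd cluster rose together in FIH-KO cells, Hoxa11 rose with them, and Hoxa5 and Hoxb9 were among those that fell. In edgeR's quasi-likelihood test with Benjamini-Hochberg adjustment over all 13933 tested genes, 7 of the 23 tested Hox genes passed an adjusted p of 0.05, 4 higher and 3 lower. Of all tested genes 28.2% passed, 15.2% higher and 13.0% lower, so the share of Hox genes called was near the background. The median log2 fold change (FIH-KO over WT) was 0.13 over the tested Hox genes and -0.003 over all tested genes.

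Hoxd10 had 12.3 and 12.9 CPM in WT normoxia and 35.7 and 30.0 in FIH-KO normoxia, where CPM are counts scaled to library size by TMM. Hoxd9 had 16.6 and 17.4 CPM in WT normoxia and 41.1 and 33.6 in FIH-KO normoxia. Hoxd8 had 28.6 and 29.7 CPM in WT normoxia and 43.5 and 43.2 in FIH-KO normoxia. For all 3 genes the lower FIH-KO library was well above the higher WT library. The log2 fold changes were 1.38 for Hoxd10 (ENSMUSG00000050368.5, SE 0.18, adjusted p = 0.000237), 1.13 for Hoxd9 (ENSMUSG00000043342.10, SE 0.15, adjusted p = 0.000308) and 0.57 for Hoxd8 (ENSMUSG00000027102.5, SE 0.12, adjusted p = 0.00513) in edgeR. The call of Hoxd8 was lost without WT normoxia replicate 1, at a log2 fold change of 0.51 and an edgeR adjusted p of 0.0806.

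The 2 other expressed genes of that cluster, Hoxd3 and Hoxd4, had log2 fold changes of 1.04 (SE 0.52, adjusted p = 0.155, edgeR) and 0.97 (SE 0.46, adjusted p = 0.136, edgeR). They did not pass the test at 4 to 18 and 11 to 37 counts in each normoxia library. Around the cluster, the 3 nearest tested protein-coding genes on each side were examined. Of these, 1 was called in both conditions, beside 28.2% of all tested genes in normoxia and 28.0% in hypoxia. It was Nfe2l2, at 909.3 kb, with log2 fold changes of 0.74 in normoxia and 0.87 in hypoxia. The nearest on either side, Mtx2 at 60.7 kb and Lnpk at 88.9 kb, were named after their values were seen and had 0.14 and 0.07 in normoxia. The 1113 tested genes of chromosome 2 lay at a median of 0.23 in normoxia and 0.21 in hypoxia on the log2 fold change scale, above the -0.003 and -0.03 of all tested genes, and the part of this shift in the Hoxd result was not tested.

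Hoxa11 (ENSMUSG00000038210.11, chr6:52219074-52222806) had 6.68 and 7.70 CPM in WT normoxia and 14.2 and 9.40 in FIH-KO normoxia. The groups did not overlap, but the FIH-KO libraries lay far apart. The log2 fold change was 0.71 (SE 0.24, adjusted p = 0.0467, edgeR). Its opposite-strand neighbour Hoxa11os rose as well, by a log2 fold change of 0.77 (SE 0.25, adjusted p = 0.0376, edgeR), and since the 2 genes overlap and the strand setting of the counting is not given in the sources used here, reads of one may be counted in the other. The Hoxa11 call was lost without WT normoxia replicate 1 (0.58), WT normoxia replicate 2 (0.79), FIH-KO normoxia replicate 1 (0.36) or WT hypoxia replicate 1 (0.68), all as log2 fold changes, with edgeR adjusted p from 0.0529 to 0.408, and it was also lost with only genes of at least 10 counts in every library tested (0.70, edgeR adjusted p = 0.0503).

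Hoxa5 (ENSMUSG00000038253.7, chr6:52178734-52181567) had 7.33 and 8.47 CPM in WT normoxia and 4.70 and 4.53 in FIH-KO normoxia. It was lower in each FIH-KO library than in either WT library, with a log2 fold change of -0.77 (SE 0.24, adjusted p = 0.0283, edgeR). The call was lost without any of the 4 normoxia libraries: -0.90 without WT normoxia replicate 1, -0.69 without WT normoxia replicate 2, -0.82 without FIH-KO normoxia replicate 1 and -0.77 without FIH-KO normoxia replicate 2.

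Hoxb9 (ENSMUSG00000020875.10, chr11:96162150-96167421), which patterns the ribs of the thorax, had 5 and 15 raw counts in WT normoxia and 0 and 2 in FIH-KO normoxia. All were low, with the FIH-KO libraries under the WT libraries. In edgeR the log2 fold change was -3.25 (SE 0.99, adjusted p = 0.0281), and the ratio of the pooled counts, 2 against 20, was 0.0936 (95% interval from counting error alone 0.0106 to 0.385). The call was lost without WT normoxia replicate 2 (log2 fold change -2.36, edgeR adjusted p = 0.233) or without FIH-KO normoxia replicate 1 (-2.40, edgeR adjusted p = 0.163), and without FIH-KO normoxia replicate 2, which leaves that group at 0 reads, the fitted value was -6.34, which depends on the prior count. Without WT normoxia replicate 1, WT normoxia replicate 2 or FIH-KO normoxia replicate 1 the number of Hox genes called in normoxia was 3 in place of 7.

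The other 15 expressed members did not pass in normoxia, with log2 fold changes from -0.44 (Hoxb7) to 1.04 (Hoxd3) and SEs from 0.16 to 0.60. Among them were the highly expressed Hoxa7, at -0.27 (SE 0.16), and Hoxa10, at -0.17 (SE 0.28). In the Hoxb cluster the only called gene was Hoxb9, and Hoxb2, Hoxb3, Hoxb5, Hoxb6 and Hoxb8 had values from 0.13 to 0.55 while Hoxb4 had -0.18. Hoxc4, the only tested gene of its cluster, had 15 pooled counts against 1, a ratio of 14 (95% interval from counting error alone 2.16 to 591), and did not pass (edgeR adjusted p = 0.0588).

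**Figure D3:**
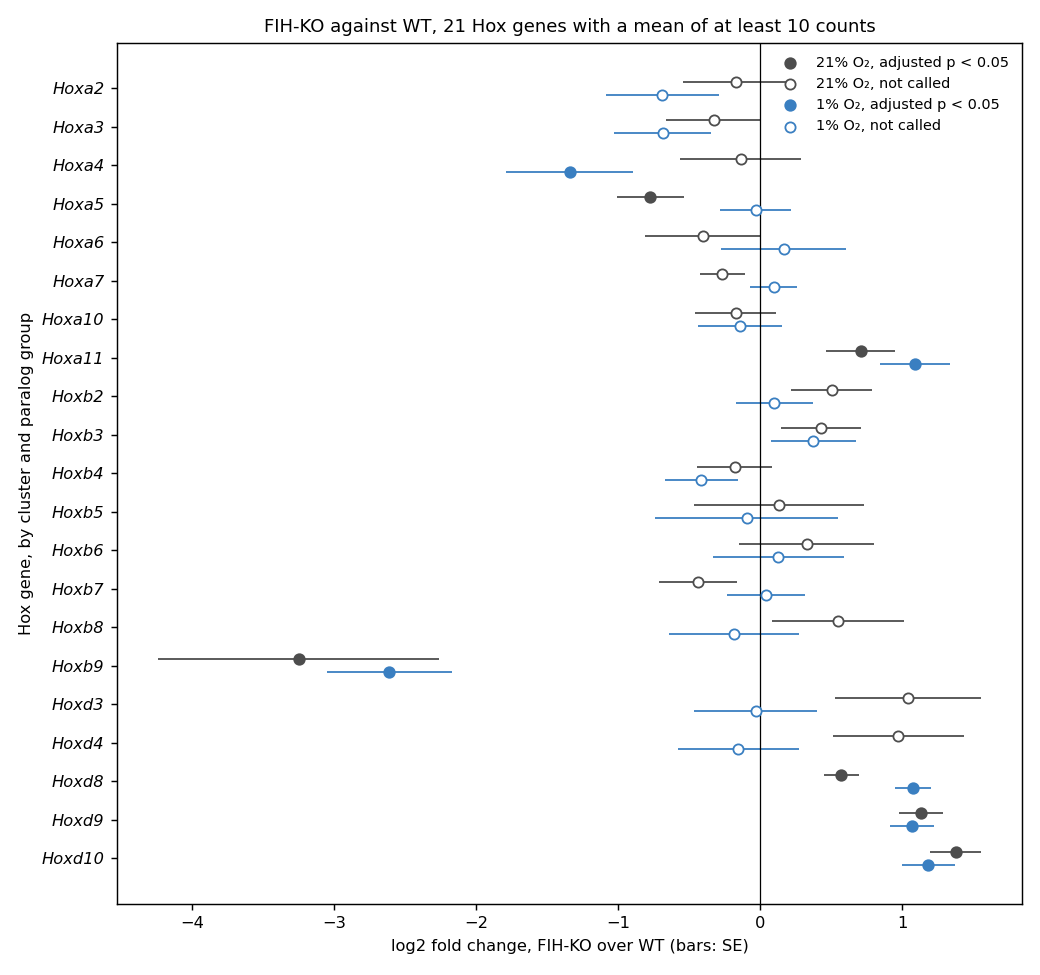
Log2 fold changes of FIH-KO over WT for 21 expressed Hox genes, ordered by cluster and paralog group, at 21% O2 (dark) and 1% O2 (blue); bars are SE and filled points passed an edgeR adjusted p of 0.05. Hoxd8, Hoxd9, Hoxd10 and Hoxa11 lie right of 0 and Hoxb9 far left of 0 at both oxygen levels, all filled.

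The same contrast was then made in hypoxia, in other libraries of WT and FIH-KO LLC cells within the same fit. Any difference between the clones and the WT cells can enter both contrasts, so their agreement does not separate it from FIH loss. Hoxd8, Hoxd9, Hoxd10 and Hoxa11 were again higher in FIH-KO cells and Hoxb9 again lower, and Hoxa4 was lower too. Of the 23 tested Hox genes 6 passed the edgeR test, 4 higher and 2 lower, beside 28.0% of all tested genes, 14.1% higher and 13.9% lower. This share too was near the background, and the median log2 fold change was -0.03 both over the tested Hox genes and over all tested genes.

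In hypoxia Hoxd8 had 17.4 and 18.5 CPM in WT libraries and 37.4 and 38.2 in FIH-KO libraries. Hoxd9 had 18.8 and 15.5 CPM in WT hypoxia and 36.0 and 36.1 in FIH-KO hypoxia. Hoxd10 had 7.85 and 9.83 CPM in WT hypoxia and 17.7 and 22.5 in FIH-KO hypoxia. In each of the 3 genes both FIH-KO libraries stood above both WT libraries. The log2 fold changes in edgeR were 1.08 for Hoxd8 (SE 0.13, adjusted p = 0.000129), 1.07 for Hoxd9 (SE 0.16, adjusted p = 0.000486) and 1.19 for Hoxd10 (SE 0.19, adjusted p = 0.000822). All 3 calls held without any single library, with log2 fold changes of 1.06 to 1.13 for Hoxd8, 0.94 to 1.25 for Hoxd9 and 1.01 to 1.39 for Hoxd10.

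Hoxa11 had 7.06 and 5.12 CPM in WT hypoxia and 13.99 and 12.11 in FIH-KO hypoxia, without overlap. Its log2 fold change was 1.09 (SE 0.25, adjusted p = 0.00657, edgeR), and that of Hoxa11os was 0.83 (SE 0.25, adjusted p = 0.0254, edgeR). Without WT hypoxia replicate 2 the Hoxa11 value was 0.89 and its call was lost (edgeR adjusted p = 0.0611).

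Hoxb9 had 123 and 128 raw counts in WT hypoxia and 28 and 12 in FIH-KO hypoxia, or 6.89 and 8.74 CPM against 1.75 and 0.781. The WT libraries were far above the FIH-KO libraries. The log2 fold change was -2.61 (SE 0.44, adjusted p = 0.00126, edgeR), and leaving out single libraries moved it between -3.27, without FIH-KO hypoxia replicate 1, and -2.15 with the call kept. Hoxb5os, a long non-coding RNA on the strand opposite to Hoxb9 whose span overlaps it, had log2 fold changes of 2.14 in normoxia (adjusted p = 0.0172, edgeR) and 1.63 in hypoxia (adjusted p = 0.0699, edgeR), the opposite direction to Hoxb9. Hoxb5os held few reads, 7 and 3 in WT and 29 and 19 in FIH-KO normoxia, and 8 and 2 in WT and 14 and 16 in FIH-KO hypoxia. With the strand setting of the counting not given, reads of one gene may be counted in the other.

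Hoxa4 (ENSMUSG00000000942.11, chr6:52166651-52168733) had 1.18 and 2.12 CPM in WT hypoxia and 0.687 and 0.586 in FIH-KO hypoxia. The groups did not overlap, and 1 of the WT libraries was far above the rest. The log2 fold change was -1.34 (SE 0.45, adjusted p = 0.0417, edgeR). DESeq2 did not call it (log2 fold change -1.35, adjusted p = 0.125), nor did edgeR with only the 4 hypoxia libraries in the fit (-1.32, adjusted p = 0.0827), and in edgeR only the fit without WT hypoxia replicate 1, of the 8 with a library left out, kept the call. The values without the other libraries were -1.31 without WT normoxia replicate 1 or WT normoxia replicate 2, -1.31 without FIH-KO normoxia replicate 1 or FIH-KO normoxia replicate 2, -0.87 without WT hypoxia replicate 2, -1.42 without FIH-KO hypoxia replicate 1 and -1.23 without FIH-KO hypoxia replicate 2.

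Of the members that did not pass in hypoxia, 15 had log2 fold changes from -0.69 (Hoxa2) to 0.38 (Hoxb3), with SEs from 0.17 to 0.64. Hoxa5 had a log2 fold change of -0.03 (SE 0.25). Hoxd3 and Hoxd4, positive in normoxia, had -0.03 (SE 0.44) and -0.15 (SE 0.43).

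Whether the difference between FIH-KO and WT cells changed with oxygen was tested by its own contrast, the difference in hypoxia minus that in normoxia. In edgeR 0 of the 23 tested Hox genes passed, beside 0.00% of all 13933 tested genes. At an unadjusted p of 0.05, 1 Hox gene and 925 of all genes passed in edgeR. DESeq2 called 0 Hox genes and 40 of all genes, with 1 Hox gene and 705 of all genes at an unadjusted p of 0.05. The 1 gene was Hoxd8 with both tools, whose difference was 0.50 on the log2 scale (SE 0.18, unadjusted p = 0.0148, adjusted p = 0.596, edgeR). Hoxa4 and Hoxa5, each called in 1 oxygen condition, had values of -1.21 (SE 0.62) and 0.74 (SE 0.34) in this contrast. Their FIH-KO over WT values were thus not shown to differ between the conditions.

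The response to hypoxia was examined next, in each genotype. In WT cells Hoxb9 rose more than any other expressed Hox gene, Hoxd3 rose from a low level, and Hoxa5, Hoxa7 and Hoxd8 fell. Of the 23 tested Hox genes 5 passed the edgeR test, 2 higher and 3 lower, beside 32.4% of all tested genes, 16.9% higher and 15.5% lower. The median log2 fold change (hypoxia over normoxia) was -0.11 over the tested Hox genes and -0.001 over all tested genes. These comparisons use the same WT normoxia and hypoxia libraries as the genotype comparisons, so a gene can be called in both from 1 shared group: Hoxa5 was at 7.90 ± 0.809 CPM in WT normoxia (SD, n = 2) and at 4.62 ± 0.120, 4.26 ± 0.548 and 4.15 ± 0.662 in FIH-KO normoxia, WT hypoxia and FIH-KO hypoxia (SD, n = 2 each).

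Hoxb9 rose from 0.321 and 0.889 CPM in WT normoxia to 6.89 and 8.74 in WT hypoxia. Both hypoxia libraries were far above both normoxia libraries. The log2 fold change was 3.65 (SE 0.49, adjusted p = 0.00024, edgeR), a 12.6-fold rise. Leaving out single libraries moved the value between 3.08 and 4.53, the latter without WT normoxia replicate 2, and the call was kept each time. In WT hypoxia Hoxb9 stood at 14.3 ± 2.89 TPM (SD, n = 2), within the spread of Hoxb7, at 13.5 ± 0.429, and so shared the top of its cluster. Its neighbour Hoxb8 had a log2 fold change of 0.55 (SE 0.47), Hoxb4 of 0.53 (SE 0.26) and Hoxb2 of 0.71 (SE 0.28, adjusted p = 0.0744, edgeR), and none of these passed.

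Hoxa7 had 29.1 and 30.9 CPM in WT normoxia and 15.2 and 18.1 in WT hypoxia, a log2 fold change of -0.85 (SE 0.16, adjusted p = 0.00215, edgeR). Hoxd8 had 28.6 and 29.7 CPM in WT normoxia and 17.4 and 18.5 in WT hypoxia, a log2 fold change of -0.70 (SE 0.13, adjusted p = 0.00168, edgeR). Hoxa5 had 7.33 and 8.47 CPM in WT normoxia and 3.87 and 4.64 in WT hypoxia, a log2 fold change of -0.90 (SE 0.24, adjusted p = 0.0137, edgeR). In all 3 genes the hypoxia libraries were below the normoxia libraries without overlap. The Hoxa5 call was lost without WT normoxia replicate 2 (-0.82) or WT hypoxia replicate 1 (-0.80), while the calls of Hoxa7 and Hoxd8 held without any single library.

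Hoxd3 had 4 and 10 raw counts in WT normoxia and 19 and 19 in WT hypoxia. The hypoxia libraries were higher, from few reads. Its log2 fold change was 1.44 (SE 0.50, adjusted p = 0.0456, edgeR); DESeq2 did not call it (1.46, adjusted p = 0.141), and the edgeR call was lost whichever library was left out, with 0.94 without WT normoxia replicate 1, 2.12 without WT normoxia replicate 2, 1.54 without WT hypoxia replicate 1, 1.29 without WT hypoxia replicate 2 and 1.40 to 1.43 without FIH-KO normoxia replicate 1, FIH-KO normoxia replicate 2, FIH-KO hypoxia replicate 1 or FIH-KO hypoxia replicate 2. Without WT normoxia replicate 2 the number of Hox genes called was 3 in place of 5. Of the members that did not pass, 16 had log2 fold changes from -0.74 (Hoxa6) to 1.05 (Hoxd4).

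**Figure D4:**
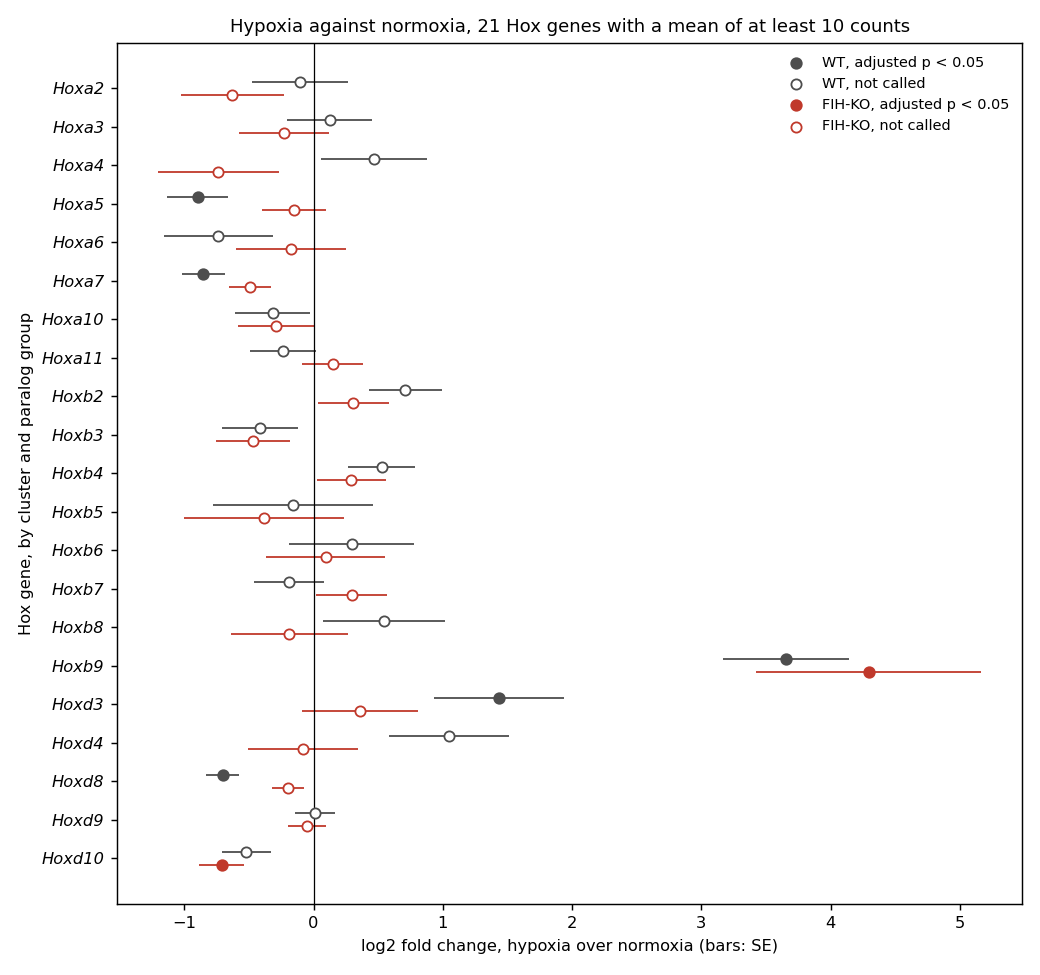
Log2 fold changes of hypoxia over normoxia for 21 expressed Hox genes in WT (dark) and FIH-KO (red) cells; bars are SE and filled points passed an edgeR adjusted p of 0.05. Hoxb9 is far right of 0 in both genotypes, at 3.65 and 4.29, and the other filled points are Hoxa5, Hoxa7, Hoxd3 and Hoxd8 in WT cells and Hoxd10 in FIH-KO cells.

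In FIH-KO cells 2 of the 23 tested Hox genes passed the edgeR test for hypoxia over normoxia, Hoxb9 and Hoxd10, beside 16.8% of all tested genes. The median log2 fold change was -0.15 over the tested Hox genes and -0.03 over all tested genes. Hoxb9 had 0 and 2 raw counts in FIH-KO normoxia and 28 and 12 in FIH-KO hypoxia. The log2 fold change was 4.29 (SE 0.87, adjusted p = 0.00622, edgeR), and the ratio of pooled counts, 40 against 2, was 22.1 (95% interval from counting error alone 5.73 to 189). Without FIH-KO normoxia replicate 1 the log2 fold change was 3.44 and the call was lost (edgeR adjusted p = 0.0514). Without FIH-KO hypoxia replicate 1 it was 3.62, and without FIH-KO normoxia replicate 2, which leaves that group at 0 reads, the fitted value was 7.38, which depends on the prior count. Hoxb9 thus rose with hypoxia in both genotypes, and its level in FIH-KO hypoxia, 1.27 ± 0.684 CPM, was below the 7.82 ± 1.30 of WT hypoxia (SD, n = 2 each).

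Hoxd10 had 35.7 and 30.0 CPM in FIH-KO normoxia and 17.7 and 22.5 in FIH-KO hypoxia. The groups did not overlap, and both hypoxia values remained above the WT values of either condition. The log2 fold change was -0.71 (SE 0.17, adjusted p = 0.0166, edgeR), and the call was lost without FIH-KO normoxia replicate 1 (-0.56) or FIH-KO hypoxia replicate 1 (-0.52). No Hox gene was called without FIH-KO normoxia replicate 1, and 1 was called without FIH-KO hypoxia replicate 1. In WT cells Hoxd10 had a log2 fold change of -0.52 (SE 0.19, adjusted p = 0.0542, edgeR). Hoxd9, by contrast, had 0.01 (SE 0.16) in WT and -0.05 (SE 0.15) in FIH-KO cells, so that of the 3 Hoxd genes higher in FIH-KO cells it alone had a hypoxia value near 0 in both genotypes, a difference between the genes that was not tested.

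**Figure D5:**
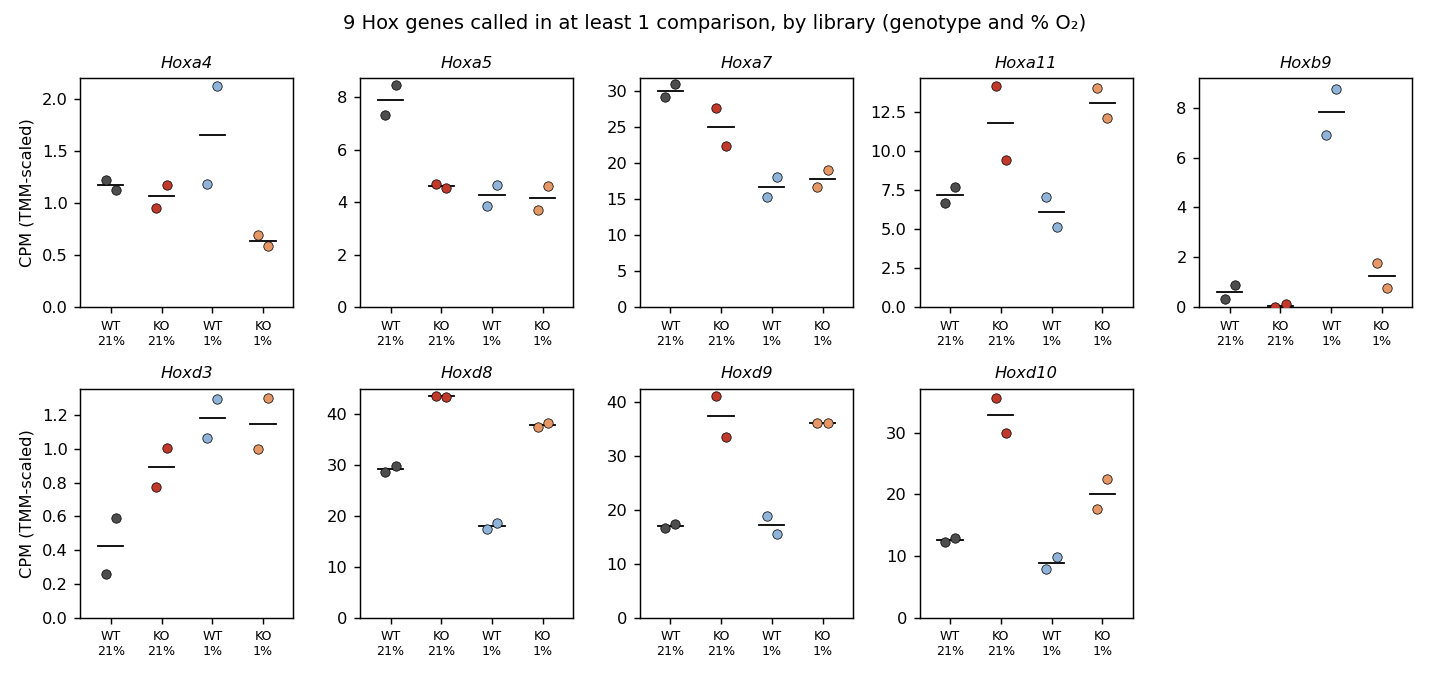
CPM of 9 Hox genes called in at least 1 comparison, with 1 point per library, the line at the group mean and each panel on its own scale from 0; the axis gives genotype and % O2. Hoxd8, Hoxd9, Hoxd10 and Hoxa11 are higher in every FIH-KO library than in every WT library, and Hoxb9 is highest in the 2 WT hypoxia libraries.

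The genotype values were also set side by side by paralog group. In group 9, Hoxd9 was higher and Hoxb9 lower in FIH-KO cells, Hoxa9 had at most 7 reads and Hoxc9 none. In group 10, Hoxd10 was higher while Hoxa10 had log2 fold changes of -0.17 (SE 0.28) in normoxia and -0.15 (SE 0.30) in hypoxia. In group 8, Hoxd8 was higher while Hoxb8 had 0.55 (SE 0.47) and -0.19 (SE 0.46), and in group 11 Hoxa11 was higher while Hoxc11 and Hoxd11 had no read. The differences between paralogs were not tested.

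The 4 cluster spans hold 28 other annotated genes, 26 of them non-coding, of which 7 were expressed. Between the end of Hoxd10 and the start of Hoxd9, on the same strand, lies Gm14396, a long non-coding RNA with 0.835 and 0.592 CPM in WT normoxia and 3.63 and 3.58 in FIH-KO normoxia. It rose by a log2 fold change of 2.33 in normoxia (SE 0.43, adjusted p = 0.00205, edgeR) and had 1.00 in hypoxia (SE 0.44, adjusted p = 0.108, edgeR), so its direction was that of the Hox genes on either side. Others, Hoxb3os, Hoxd3os1 and the pseudogene Gm11539, had normoxia values of -0.53, -0.31 and -0.37 and did not pass, and Gm28230, which is annotated as protein-coding, rose in normoxia by 1.51 (SE 0.49, adjusted p = 0.0355, edgeR). Of these 8 expressed genes inside the clusters 4 were higher and 1 lower in normoxia and 1 higher in hypoxia for FIH-KO over WT, beside 28.2% of all tested genes called in normoxia and 28.0% in hypoxia. The gene called lower is a non-coding one that is not named here.

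The known regulators and partners of the Hox genes were described from lists, by genotype, and the counts called are to be read against the 28.2% of all tested genes called in normoxia (15.2% higher, 13.0% lower) and the 28.0% in hypoxia (14.1% higher, 13.9% lower). The Caudal factor Cdx2, which acts upstream of the central Hox genes in the embryo, had 60 and 67 reads in WT normoxia, 54 and 51 in WT hypoxia, 2 and 0 in FIH-KO normoxia and 0 and 1 in FIH-KO hypoxia. WT cells thus held it and FIH-KO cells hardly did. The pooled ratio was 0.0147 in normoxia (95% interval from counting error alone 0.00177 to 0.0544) and 0.00986 in hypoxia (0.000247 to 0.0562), and edgeR called it lower in both conditions (adjusted p = 6.1e-05 and 9.8e-05). Cdx1 and Cdx4 had no read.

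Of 9 TALE partners, all tested, 3 were higher and 1 lower in FIH-KO normoxia and 5 were higher and 1 lower in FIH-KO hypoxia, with median log2 fold changes of 0.35 and 0.45. Pknox2 rose most, from 7 and 8 reads in WT normoxia to 58 and 56 in FIH-KO normoxia and from 3 and 3 in WT hypoxia to 34 and 28 in FIH-KO hypoxia, a log2 fold change of 2.81 in normoxia (SE 0.38) and a pooled ratio of 10.7 in hypoxia (95% interval from counting error alone 4.65 to 30.3). Meis3 rose by a log2 fold change of 0.50 and 0.45, and Pbx3 fell, with -0.54 and -0.58.

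Of 17 retinoid genes 7 were tested, with 4 higher and 1 lower in normoxia, 3 higher and 1 lower in hypoxia and medians of 0.65 and 0.40. Crabp1, which carries retinoic acid in the cytoplasm, fell to log2 fold changes of -3.54 (SE 0.32) and -4.93 (SE 0.41). Rxra, a partner of the retinoic acid receptors, rose by 1.14 and 1.10 (SE 0.10 each). Dhrs3, a retinaldehyde reductase, rose from 13 and 14 reads to 51 and 34 in normoxia, and had 1 and 2 reads in WT hypoxia against 28 and 21 in FIH-KO hypoxia, a pooled ratio of 16.9 (95% interval from counting error alone 5.46 to 84.8).

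Polycomb genes moved in both directions. Of the 12 genes of PRC2, which writes the repressive mark on silent Hox genes, 2 were higher and 5 lower in normoxia and 1 higher and 4 lower in hypoxia (medians -0.20 and -0.27): the accessory subunit Phf1 rose by 0.91 and 1.21, while the core subunit Suz12 had -0.55 and -0.51 and the accessory subunit Phf19 had -0.63 and -0.54, both called lower. Of the 19 PRC1 genes 6 were higher and 5 lower in normoxia and 3 higher and 8 lower in hypoxia (medians -0.15 and -0.36). Pcgf5 (-0.89 and -0.82) and Rybp (-0.61 and -0.81) fell in both conditions, and Cbx6 rose (0.62 and 0.71).

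Of the 15 Trithorax and MLL genes, which keep active Hox genes on, 3 were higher and 2 lower in normoxia and 1 higher and 2 lower in hypoxia (medians -0.04 and -0.16). Men1, the menin cofactor of the MLL complex, fell (-0.62 and -0.61) and Kdm6a, a demethylase of the Polycomb mark, rose (0.63 and 0.45). Of the 8 CTCF and cohesin genes, which shape the loops of the clusters, none was higher, 2 were lower in normoxia and 3 in hypoxia (medians -0.24 and -0.13), with Smc3 at -0.64 and -0.61 and Stag1 at -0.49 and -0.40. The even-skipped genes Evx1 and Evx2, which border 2 of the clusters, had too few reads to test. The values in this and the preceding paragraphs on regulators are log2 fold changes of FIH-KO over WT in edgeR, normoxia first, and their part in the Hox results was not tested.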

How the data were processed

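Stranded mRNA libraries of WT and FIH-KO LLC cells in normoxia or hypoxia, 2 per group, were analysed. Per the methods, the authors used STAR for alignment to GRCm39 and HTSeq for counting, and deposited raw, unscaled counts. Which annotation release was counted, whether strand was used and how multiply mapped reads were treated are not given in the sources used here. Of the 22 expressed Hox genes, 8 overlap a gene on the same strand and 20 a gene on the other strand, counted over whole gene spans with introns. Where their exons overlap too, which was not examined, reads may be divided between such genes. Some members with few or no reads also overlap genes on the same strand, among them Hoxa9, Hoxd11, Hoxc5, Hoxc6, Hoxc8, Hoxc9 and Hoxc10. If exons are shared, their counts may be too low.

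The tests were made with edgeR 4.0.16 (R 4.3.3). The filterByExpr function, given the groups, kept 13933 genes; after TMM scaling, all libraries entered a single quasi-likelihood fit of the 4 group means, with p values adjusted over all tested genes by Benjamini-Hochberg (threshold 0.05). P values given for single genes are from this model unless another tool is named. Filtering left 23 Hox genes, the 22 expressed and Hoxc4. TPM used the exonic length of GENCODE M39 for GRCm39, in which 97.97% of identifiers were found. Intervals of pooled count ratios are exact binomial at 95%. Library totals of 14519731 to 18177016 counts set the precision. The model was tested on simulated data.

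Expressed Hox genes were named, those called in any comparison with a value for every library, except 1 member that is not reported here by name but enters the counts and sums. Regulators were named when called for genotype in both oxygen conditions, at most 3 per list by the smaller absolute log2 fold change. The members and lists were chosen with earlier results of these data known. Alternatives were DESeq2 1.42.0, RLE and upper-quartile scaling, 2 other filters, a fit with only the libraries compared, a replicate block, and each library left out. Plots were drawn with matplotlib 3.10.9 in Python 3.11.15.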

Additional observations from a re-analysis of the deposited data

How the results depend on the processing

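Of 20 called values of Hox genes, 9 kept their direction and call in every alternative run in which the gene was tested. These were Hoxd9 and Hoxd10 for FIH-KO over WT in both conditions, and Hoxd8 and Hoxb9 for FIH-KO over WT in hypoxia. The others were Hoxb9, Hoxa7 and Hoxd8 for hypoxia over normoxia in WT cells. Over 293 alternative values, 254 kept the call, 39 lost it and 0 changed direction. Leaving out single libraries gave 3 to 7 called Hox genes for FIH-KO over WT in normoxia, 4 to 6 in hypoxia, 3 to 5 for hypoxia over normoxia in WT and 0 to 2 in FIH-KO cells. With at least 10 counts in every library, which removed Hoxb9 and Hoxd3, 3 were called for hypoxia in WT and 1 in FIH-KO cells. Over all genes, fewer passed for FIH-KO over WT in normoxia without WT normoxia replicate 1 (1735), WT normoxia replicate 2 (2080) or FIH-KO normoxia replicate 1 (1893) than the 3933 with all libraries. The number of expressed Hox genes was 18 to 22 under other minimum levels.

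The replicate numbers shared by the groups were not taken as pairs, since the labels do not say that they mark a shared culture, batch or day. The differences between the 2 libraries of a group correlated between groups at -0.0104 to 0.193 across genes, which does not decide whether they were paired. With a replicate block the Hox calls were 8, 6, 5, 2 and 0, in the order normoxia, hypoxia, WT, FIH-KO and the difference, against 7, 6, 5, 2 and 0 without it. With 2 libraries per group and counts under 40 in each library for genes such as Hoxa4, Hoxb5, Hoxb6 and Hoxd3, differences within the spread between libraries were not detectable at this depth.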
